A study of Homo sapiens with 2 samples.

Results

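Septin genes were described from DEK ChIP-seq peaks of 786-O cells, with SEPTIN9 in detail. 786-O is a widely used cell line from a human renal carcinoma. The 9 genes SEPTIN2, SEPTIN4, SEPTIN5, SEPTIN6, SEPTIN7, SEPTIN8, SEPTIN9, SEPTIN10 and SEPTIN11 were taken by name from 19974 RefSeq protein-coding genes of GRCh38, and each was given all DEK peaks overlapping its annotated span plus 10 kb on each side. Both libraries belonged to 1 group of wild-type genotype, labelled negative control, with Cas9 in their descriptions and DEK as the antibody. They differed in replicate number only, and nothing in the labels says that they came from separate cultures, so the spread between them may be technical. No DEK-edited, input or other-antibody library was analysed here, and the labels leave the meaning of negative control unstated. The genes were selected on the number of peaks per length seen at SEPTIN9 in these same libraries. Counts and ranks of SEPTIN9 are therefore given as a description, with no test.

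Septins are GTP-binding cytoskeletal proteins that join into mixed rods and then into filaments at the plasma membrane, along actin bundles and at the cleavage furrow of dividing cells. They fall into subgroups by sequence, named after SEPTIN2 (with SEPTIN1, SEPTIN4 and SEPTIN5), SEPTIN3 (with SEPTIN9 and SEPTIN12), SEPTIN6 (with SEPTIN8, SEPTIN10, SEPTIN11 and SEPTIN14) and SEPTIN7, and a rod takes members of different subgroups. SEPTIN9 is a long gene with many alternative transcripts that begin at separate starts, and methylation of its DNA is used as a blood marker of colorectal cancer. DEK is an abundant nuclear protein that binds chromatin, DNA of unusual shape and histones.

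SEPTIN9 lay on the plus strand at chr17:77281499-77500596, a span of 219 kb, and RefSeq start windows, each running from 250 bases before to 50 bases after a start, were held for 10 of its starts. DEK regions shared by both replicates had their mean summit inside 3 of these 10 windows, and those 3 are printed first because they show the sequence around these mean summits. In them the capitals mark the 21 bases centred on the mean summit of the replicates. The summits of the replicates themselves lay 11, 61 and 94 bp apart in the order printed. The capitals therefore hold both summits in the first sequence and neither in the next 2. The last 2 sequences are the windows of the most upstream start and of the start at 77373337, shown because they were the richest in CG dinucleotides of the 10 and held no shared summit. In those the capitals mark each GGGCGG, read on either strand. All sequences are plus strand, 5′ to 3′, from RefSeq on GRCh38.p14.
Start at 77287935, chr17:77287685-77287984, shared summit 59 bases before the start: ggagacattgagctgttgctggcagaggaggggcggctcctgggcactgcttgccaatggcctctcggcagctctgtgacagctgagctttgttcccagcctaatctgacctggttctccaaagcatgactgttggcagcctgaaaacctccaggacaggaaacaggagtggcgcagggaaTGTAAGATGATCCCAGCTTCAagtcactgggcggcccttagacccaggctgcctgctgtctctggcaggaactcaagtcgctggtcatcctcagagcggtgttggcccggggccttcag
Start at 77319518, chr17:77319268-77319567, shared summit 192 bases before the start: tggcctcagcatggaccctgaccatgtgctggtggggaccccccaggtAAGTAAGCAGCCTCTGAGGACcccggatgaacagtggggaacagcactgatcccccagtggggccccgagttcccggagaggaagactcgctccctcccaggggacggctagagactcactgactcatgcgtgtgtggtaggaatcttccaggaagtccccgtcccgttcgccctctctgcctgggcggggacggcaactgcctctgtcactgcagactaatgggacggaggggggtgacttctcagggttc
Start at 77405077, chr17:77404827-77405126, shared summit 122 bases before the start: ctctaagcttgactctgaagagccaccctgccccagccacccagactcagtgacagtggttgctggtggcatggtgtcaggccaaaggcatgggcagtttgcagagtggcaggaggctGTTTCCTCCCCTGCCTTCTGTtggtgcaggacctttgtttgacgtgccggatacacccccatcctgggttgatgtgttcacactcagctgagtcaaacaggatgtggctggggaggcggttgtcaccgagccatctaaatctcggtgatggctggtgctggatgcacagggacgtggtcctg
Start at 77281499, chr17:77281249-77281548, no shared summit: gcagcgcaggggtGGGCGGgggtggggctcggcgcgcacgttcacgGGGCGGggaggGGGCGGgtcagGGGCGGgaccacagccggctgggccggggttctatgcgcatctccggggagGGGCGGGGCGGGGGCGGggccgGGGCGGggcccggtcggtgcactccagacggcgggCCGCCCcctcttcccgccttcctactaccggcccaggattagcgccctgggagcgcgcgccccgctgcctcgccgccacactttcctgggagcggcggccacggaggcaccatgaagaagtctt
Start at 77373337, chr17:77373087-77373386, no shared summit: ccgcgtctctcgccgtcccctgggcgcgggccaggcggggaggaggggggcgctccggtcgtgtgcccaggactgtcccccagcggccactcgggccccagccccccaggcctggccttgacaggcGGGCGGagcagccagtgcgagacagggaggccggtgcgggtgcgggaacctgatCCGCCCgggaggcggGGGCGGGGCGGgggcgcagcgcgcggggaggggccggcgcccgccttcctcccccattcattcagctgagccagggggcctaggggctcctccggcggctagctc

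The windows differed in base composition. The 3 windows with a shared summit held 7, 12 and 6 CG dinucleotides in the order printed, with a GC content of 59.0%, 63.0% and 58.0%. The windows at the most upstream start and at 77373337 held 36 and 32 CG dinucleotides, with a GC content of 77.3% and 78.7%. Over all 34961 start windows the median was 14 CG dinucleotides, and over the 759 windows with a shared summit, 2.17% of all, it was 18. The 3 windows of SEPTIN9 with more than 12 CG dinucleotides, the third being that of the start at 77451484 with 25, held no shared summit. Neither did 4 of its windows with 3 to 8. The part of base composition in where peaks were called was not tested.

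Short motifs were searched on both strands in the same windows. TGANTCA, the form of an AP-1 site with any base in the middle, was found in 7.68% of all start windows and in 4 of the 10 of SEPTIN9, those at 77319518, 77376083, 77405077 and 77450749. It lay 113 bp from the mean summit at 77319326 and 81 bp from that at 77404955, while the window of the summit at 77287876 had none. GGGCGG, the core of a GC box, occurred in 45% of all windows. It occurred in 6 of the 10 windows of SEPTIN9, among them 2 of the 3 with a shared summit. In the order printed, the 5 windows held it 2, 1, 0, 9 and 4 times, and 1 match lay 20.5 bp from the mean summit at 77287876. ACGTG, the core of a hypoxia response element and part of some E-boxes, occurred in 21.4% of all windows. In SEPTIN9 it occurred in the windows at 77281499, 77376083 and 77405077, of which only the last held a shared summit. There its matches lay 33 and 163 bp from the mean summit at 77404955. Matches of different motifs did not overlap, while neighbouring GGGCGG matches shared 1 base at 77281373 and at 77373287. A match describes letters only.

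Within 10 kb of its span SEPTIN9 held 20 peaks in replicate 1 and 25 in replicate 2, which formed 16 shared regions. A shared region is a group of peaks of both replicates that overlap by at least 1 bp, and 12590 were found on chromosomes 1 to 22 and X. The 16 gave 6.69 regions per 100 kb. Among the 3351 protein-coding genes with a span of at least 100 kb the median was 0 per 100 kb, the 75th percentile 0.744 and the highest value 9.69. Only 0.209% of these genes were at or above SEPTIN9, which ranked 7th, and by the number of regions only 2 of all 19974 genes (0.01%) had 16 or more. Counted from the peaks of 1 library alone it ranked 7th in replicate 1 and 3rd in replicate 2. The density was made up mostly of regions of low fold enrichment. When both peaks had to reach a fold enrichment of at least 4, as in 40.1% of all shared regions, 2 of the 16 were left. With a −log10 q of at least 5 in both, 10 were left.

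**Figure D1:**
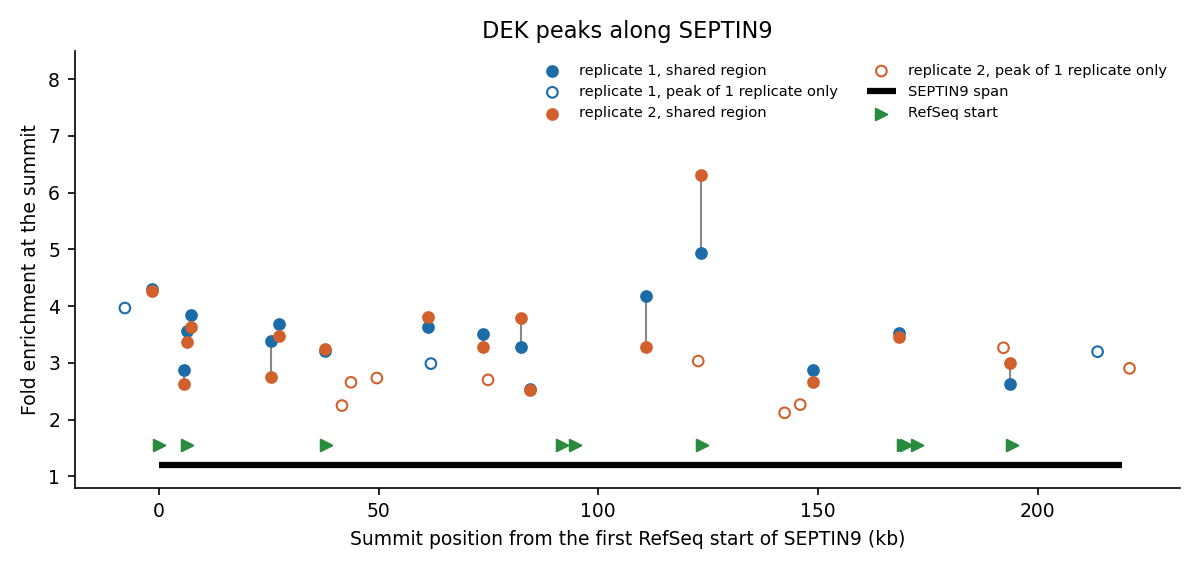
Fold enrichment at the summit (y axis, linear) of DEK peaks along SEPTIN9, against the distance of the summit from the most upstream RefSeq start in kb (x axis). Filled points joined by a line are the 2 replicates of each of the 16 shared regions, open points are peaks of 1 replicate, the bar is the annotated span and the triangles are the 10 RefSeq starts. The highest pair, at 123 kb, reached 4.93 and 6.31, and 10 of the 16 shared summits lay in the upstream part of the span, before its midpoint.

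The strongest region of SEPTIN9 by fold enrichment lay at an internal start, 123 kb downstream of the most upstream one. This region, chr17:77404681-77405213, had a fold enrichment of 4.93 in replicate 1 and 6.31 in replicate 2 (5.62 ± 0.978, SD, n = 2), with summits at 77404908 and 77405002. Fold enrichment comes from the authors' peak lists and is a linear ratio of the fragments at the summit to a background. That background is assumed here to be of the same library. The summits rested on 32 overlapping fragments in replicate 1 (exact Poisson 95% interval 21.9 to 45.2) and 48 in replicate 2 (35.4 to 63.6), intervals that overlap and cover counting error only. By mean fold enrichment it stood at the 92.2 percentile of all shared regions, the highest of the 16. By fragments it was not the highest, with a mean of 40 over the replicates against 46.5 at the summit at 77287876. The start at 77405077, whose window is printed above, lay 122 bp downstream of the mean summit.

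The upstream end of the gene carried a first group of regions. One lay before the gene, with a mean summit at 77279944, 1555 bp upstream of the most upstream start and inside the divergent long non-coding RNA gene SEPTIN9-DT, and its fold enrichment was 4.30 and 4.27 (values here and below are in the order replicate 1, replicate 2). The most upstream start itself had no peak in its window. The next 3 regions lay around the start at 77287935, their summits 0.775 and 1.00 kb apart. Their mean summits were 77287101 (2.87 and 2.63), 77287876 (3.57 and 3.37) and 77288878 (3.84 and 3.64). The middle one is the first sequence printed above, 59 bp upstream of that start, and the outer ones lay 834 bp before it and 943 bp after it.

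Further into the gene the regions lay singly or in pairs. A pair at 77307005 (3.39 and 2.76) and 77308829 (3.68 and 3.48) stood 25.5 and 27.3 kb from the most upstream start. The second of the pair was the widest of the 16, 1624 bp, and joined 2 peaks of replicate 1 to 1 of replicate 2. The region at 77319326 (3.21 and 3.24) lay 192 bp upstream of the start at 77319518. No RefSeq start of the gene lay within 7 kb of the next 5 summits. They were 77342664 (3.63 and 3.81), 77355169 (3.5 and 3.28), 77363991 (3.27 and 3.79), 77365851 (2.55 and 2.52) and 77392372 (4.18 and 3.27).

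The downstream part of the gene held few regions. After the strongest region came summits at 77430393 (2.88 and 2.66), 77449901 (3.53 and 3.46) and 77475218 (2.63 and 3.0). The region at 77449901 lay 848 bp upstream of the start at 77450749, and that at 77475218 lay 417 bp upstream of the start at 77475635. No shared summit lay in the last 25.4 kb of the span. In all, 10 summits lay before the midpoint of the span, 5 after it and 1 ahead of the gene. Adjacent summits were a median of 12.5 kb apart, against 58.3 kb over all shared regions, and the widest gap was 26.5 kb. Because SEPTIN9 was chosen for its density of peaks, the shorter gaps restate that choice.

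Some starts inside SEPTIN9 lay close to DEK summits and others did not. A shared summit lay within 1 kb of 5 of the 10 starts, and 7 of the 16 summits lay within 1 kb of a start of the gene. Among the 7, those at 77287101, 77287876 and 77288878 lay around the same start. The share of all starts or of all shared regions at this distance was not computed, so these counts have no background beside them. Inside a start window lay 3 of the 16 summits (18.8%), against 4.74% of all shared regions. The 10 windows made up 1.25% of the span and its flanks. The share of the genome that all start windows cover was not computed. The 18.8% and 4.74% thus rest on unlike bases and show no preference of SEPTIN9 regions for starts. The starts at 77373337 and 77376083 had their nearest shared summit 7486 and 10232 bp away. The labels do not say which of these starts are used in 786-O cells, and no RNA was measured in these files.

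The replicates placed the SEPTIN9 regions close together. Their summits differed by 4 to 144 bp with a median of 58 bp, against a median of 69 bp over all shared regions. Fold enrichment was higher in replicate 1 at 11 of the 16 regions and higher in replicate 2 at 5. The median SD between the replicates was 0.149, against 0.348 over all shared regions, and the largest SDs were 0.978 at the strongest region and 0.641 at 77392372. These medians were not matched for fold enrichment, which was lower at SEPTIN9, or for fragments, which were more numerous there. Whether the SD was smaller beyond those differences was not tested. Across the 16 regions the Spearman coefficient between the replicates was 0.806 for fold enrichment. This is across regions of 1 gene, which share their libraries and surroundings, and no p is given.

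In replicate 1, 17 of the 20 SEPTIN9 peaks were shared with replicate 2 (85.0%, 95% Wilson interval 64.0 to 94.8). In replicate 2, 16 of 25 were shared with replicate 1 (64.0%, interval 44.5 to 79.8). Over all peaks the shares were 67.8% and 52.2%, inside both intervals. Peaks found in replicate 1 alone had summits at 77273740 (fold enrichment 3.97), 77343395 (2.99) and 77495146 (3.20). Replicate 2 had 9 peaks of its own, of 2.12 to 3.27. The median −log10 q of the unshared peaks was 3.98 in replicate 1 and 2.94 in replicate 2, against 6.78 and 6.91 for the shared ones. Where 1 library lacks a peak, no summit there reached the deposited list, which does not show that signal was absent.

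The 16 regions had many fragments and a low fold enrichment. The fold enrichment of its 16 regions had a median of 3.48 (mean of the replicates), below the median of 4.12 of all shared regions, and 14 of the 16 were below that median. Fragments overlapping at their summits had medians of 37 and 38.5 in the 2 libraries, against 21 and 22 over all shared regions. At 15 of the 16 the mean number was above the median of all regions.

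The background was read as the library's own reads in a window of 10 kb around the summit, on the assumption that no control library was used in calling. It reached medians of 603 (replicate 1) and 725 (replicate 2) reads per 10 kb. Over all shared regions it was 236 and 277, so SEPTIN9 was 2.56-fold and 2.62-fold higher. All 16 regions were above those medians in both libraries, and 14 had at least 400 reads per 10 kb in both, as did 14.3% of all shared regions. The lowest of the 16 was at 77449901, with 246 and 329 reads, and the strongest region had 320 and 415. The highest was at 77287101, with 707 and 872. Where the background is high, a peak of lower fold enrichment can pass a threshold on p, and the part of read density in the number of regions of SEPTIN9 was not tested. The background includes the reads of the peaks themselves.

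**Figure D2:**
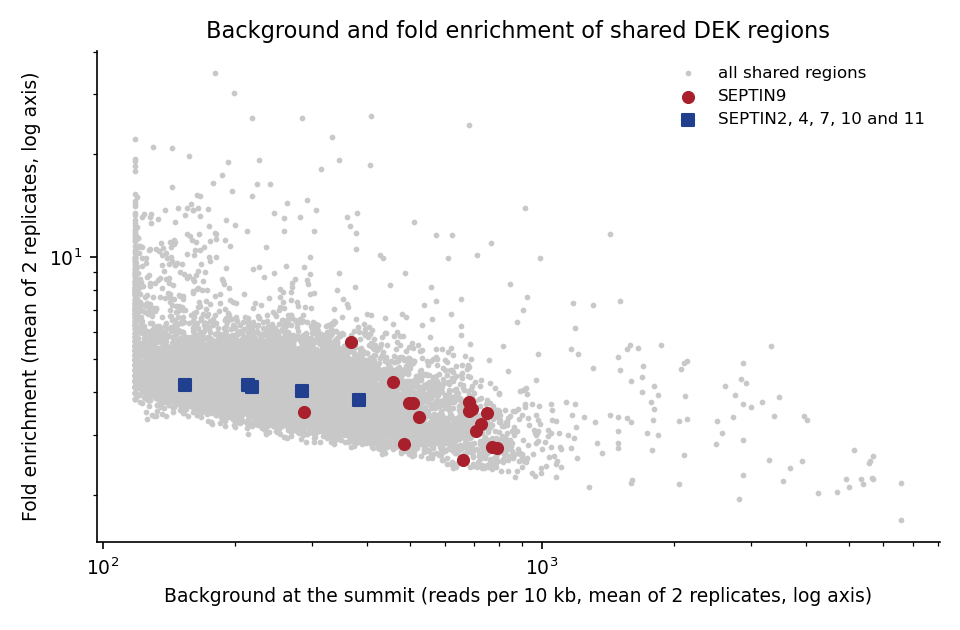
Fold enrichment (y axis, log scale) against background reads per 10 kb at the summit (x axis, log scale), each the mean of 2 replicates, for all 12590 shared regions (grey), the 16 of SEPTIN9 (circles) and those of SEPTIN2, SEPTIN4, SEPTIN7, SEPTIN10 and SEPTIN11 (squares, 1 each). Of the SEPTIN9 circles, 14 lie below the median fold enrichment of 4.12 of all shared regions and 2 above it, the highest at 5.62.

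Peaks around SEPTIN9 had a lower background than those in it. From 10 to 250 kb on the side of lower coordinates, the median was 301 reads per 10 kb for peaks of replicate 1 and 339 for those of replicate 2, against 544 and 719 for all peaks of SEPTIN9. From 10 to 250 kb on the other side neither library had a peak. Between 250 kb and 1 Mb the medians were 298 and 334 on the lower side and 354 and 417 on the upper side, and over the whole of chromosome 17 they were 254 and 298. Of the 20 SEPTIN9 peaks of replicate 1, 10 were above the highest of the 125 other peaks within 3 Mb (595 reads), and in replicate 2 this held for 9 of 25 against 168 others (774 reads). Background could be read only where a peak was called.

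**Figure D3:**
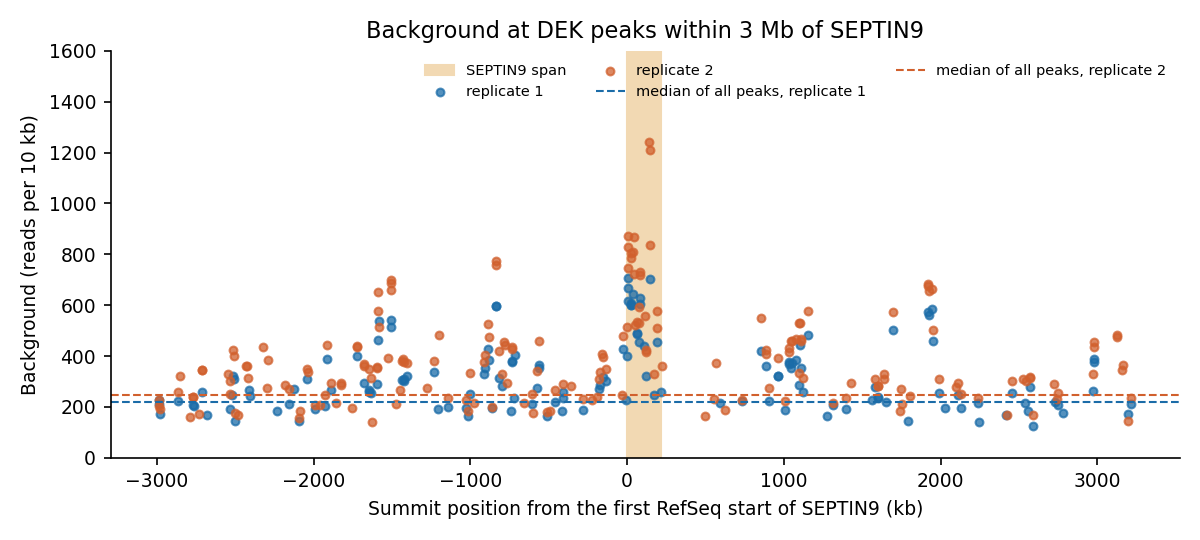
Background at each DEK peak (y axis, reads per 10 kb, linear) against its distance from the most upstream start of SEPTIN9 in kb (x axis), within 3 Mb of the gene, with 1 point per peak and replicate. Dashed lines are the medians of all peaks, 219 reads in replicate 1 and 246 in replicate 2, and the shaded span of SEPTIN9 holds the highest points of both libraries, 707 and 1240.

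The density of shared regions fell off in the same way. It was 2.08 per 100 kb from 10 to 250 kb on the lower side, 0 on the upper side, and 2.27 and 2.13 per 100 kb from 250 kb to 1 Mb on the 2 sides. The nearest protein-coding gene of lower coordinates, SEC14L1, which encodes a lipid-binding protein of the SEC14 family, lay 64.4 kb away and held 4 shared regions. MGAT5B, MFSD11, TNRC6C and TMC6 held 1 each, and LOC124904103, 58.2 kb away on the other side, held none. The nearest peaks outside the 10 kb flanks of SEPTIN9 lay 25.6 and 25.5 kb from its span, with a fold enrichment of 5.34 and 4.54. The peaks farthest out within the flanks lay 7.67 kb from the span in replicate 1 (3.97) and 1.74 kb in replicate 2 (2.91).

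Of the 9 septin genes, 6 had at least 1 shared region, against 32.9% of all protein-coding genes and 48.2% of those with a span of at least 100 kb. The share thus differed with gene length, for which the 9 genes were not matched. The same 6 had peaks in replicate 1, against 43.4% of all genes, and in replicate 2, against 49.7%. Apart from SEPTIN9, which was chosen for its density, 5 of 8 had exactly 1. These 8 genes together had 5 regions over 615 kb, 0.814 per 100 kb. Their mean fold enrichment was 3.79 to 4.21, near the median of 4.12 of all shared regions. RefSeq start windows were held for 8 of the 9 genes, and the 15 windows of septins other than SEPTIN9 held 0 shared summits, where 2.17% of all windows held one.

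**Figure D4:**
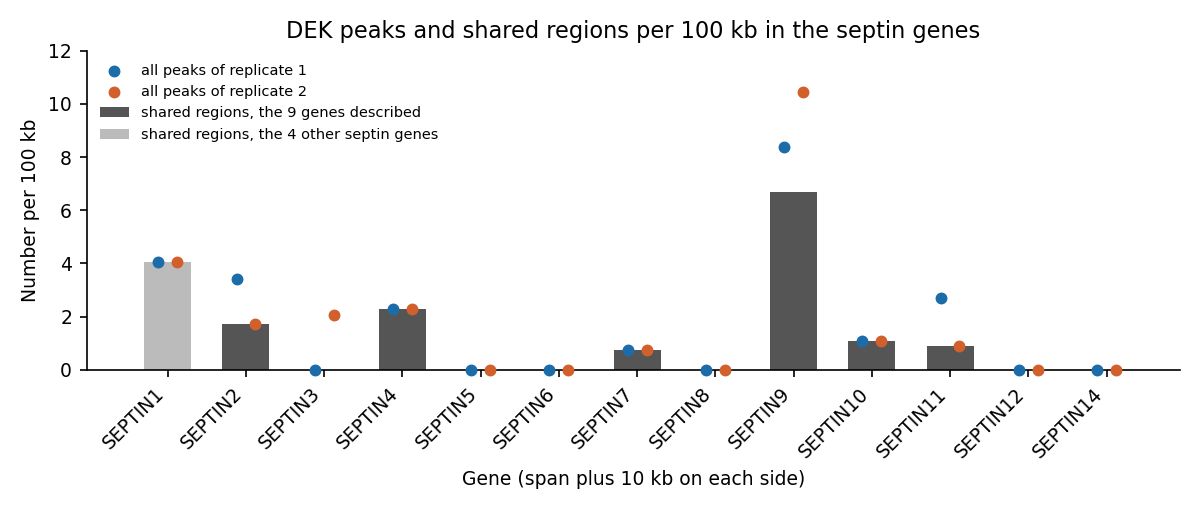
Number of DEK peaks and shared regions per 100 kb (y axis, linear from 0) in 13 septin genes with 10 kb flanks (x axis). Bars are shared regions, dark for the 9 genes described and light for the 4 others, and points are all peaks of each replicate. SEPTIN9 reached 6.69 shared regions per 100 kb, and no other septin passed 4.05.

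SEPTIN7, the only member of its subgroup and a core part of septin rods, had its region at the downstream end. The gene spans chr7:35800986-35915763, and the region at chr7:35914798-35915258 had its mean summit 0.801 kb before the end of the span. Its fold enrichment was 4.85 in replicate 1 and 3.57 in replicate 2 (4.21 ± 0.905, SD, n = 2). The fragments numbered 15 and 13 on a background of 129 and 179 reads per 10 kb, the lowest background among the septin regions. The replicates' summits, 35915095 and 35914830, were too far apart to count as shared when summits had to lie within 100 bp.

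In the SEPTIN2 subgroup, SEPTIN2 and SEPTIN4 had 1 region each and SEPTIN5 had no peak in either library. SEPTIN2, a widely expressed rod subunit at chr2:241315355-241354027, had a region at chr2:241351308-241351830, 2.57 kb before its downstream end. Its fold enrichment was 3.30 in replicate 1 and 4.29 in replicate 2 (3.79 ± 0.705), and the nearest RefSeq start was that of the neighbour FARP2, 4824 bp away. A further peak of replicate 1 alone, of 2.81, lay just past the end of SEPTIN2. The region given to SEPTIN4 (chr17:58520256-58544328) lay outside that gene, in peaks that began 1.87 and 1.98 kb from its span. It was inside MTMR4, which encodes a phosphoinositide phosphatase of the myotubularin family, 280 bp from a start of that gene. Its fold enrichment was 4.24 and 4.16 (4.2 ± 0.0561, SD, n = 2), and among the 9 genes only SEPTIN4 and SEPTIN9 held a shared region when a fold enrichment of at least 4 was required.

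In the SEPTIN6 subgroup, SEPTIN10 and SEPTIN11 had 1 region each, and SEPTIN6 and SEPTIN8 had no peak in either library. The region of SEPTIN10 (chr2:109542799-109613966) lay inside the gene at chr2:109558302-109558837, 55.3 kb from its start. Its fold enrichment was 4.13 and 3.93 (4.03 ± 0.146, SD, n = 2), and among the 9 genes only SEPTIN9 and SEPTIN10 had a region with a −log10 q of at least 5 in both libraries. The RefSeq span of RANBP2 also covers it. SEPTIN11 (chr4:76949752-77040154) had a region at chr4:77010884-77011256, 61.3 kb from its start, of 4.64 and 3.66 (4.15 ± 0.691). Replicate 1 had 2 further peaks in SEPTIN11 that replicate 2 did not have.

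The nearest peaks to the genes without one lay far off. They were 57.0 and 56.9 kb from the span of SEPTIN5, 75.3 and 75.4 kb from that of SEPTIN6, and 73.4 and 73.3 kb from that of SEPTIN8. SEPTIN5 spans only 8.82 kb, so its window offered less room than that of SEPTIN6, with a span of 77.4 kb. A gene without a peak is one where none passed the authors' threshold, and DEK below it was not detectable.

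By all peaks per 100 kb, those of the 9 genes with a peak stood in the order SEPTIN9 (9.41 ± 1.48, SD, n = 2), SEPTIN2 (2.56 ± 1.21), SEPTIN4 (2.27 in both libraries), SEPTIN11 (1.81 ± 1.28), SEPTIN10 (1.10 in both) and SEPTIN7 (0.742 in both). SEPTIN9 was chosen for this value, so its place is a description. Below it, each gene rested on 1 to 3 peaks a library, and a count of 1 has an exact Poisson 95% interval of 0.0253 to 5.57. Their order among themselves was not detectable at this depth. The backgrounds of these genes were also lower, from 129 reads per 10 kb at SEPTIN7 to 370 at SEPTIN2 in replicate 1.

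Of the 4 other human septin genes, SEPTIN1 had 1 shared region, SEPTIN3 had 1 peak in replicate 2 alone, and SEPTIN12 and SEPTIN14 had no peak. The region of SEPTIN1 had a fold enrichment of 4.77 and 4.56 (4.66 ± 0.153, SD, n = 2) and lay outside the gene. It was 65 bp from a start of MYL11, which encodes a myosin light chain of skeletal muscle. The 4.05 regions per 100 kb of SEPTIN1 came from this 1 region in a short window.

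Septins are bound by the Borg proteins, effectors of the GTPase CDC42 encoded by the CDC42EP genes, and work with anillin, myosin and the kinases and kinesins of cytokinesis. Of 20 genes of such partners, 11 had a shared region, against 32.9% of all protein-coding genes and 48.2% of those of at least 100 kb. The partners were not matched for length, and some are long, among them DIAPH3 with a span of 498 kb. At RHOA and KIF20A the shared region lay outside the gene span, at RHOA inside AMT. Another 6 partners had a peak of either or both libraries but no shared region, and 3 (ECT2, KIF23 and PRC1) had no peak. A peak was found at 43.4% of all genes in replicate 1 and at 49.7% in replicate 2. By fold enrichment the highest were ARHGEF18 (9.44 and 12.9), and CIT, which encodes citron kinase (6.12 and 5.43). CDC42EP1 (4.95 and 5.24) and DIAPH1, which encodes an actin-nucleating formin (4.57 and 5.05), came next. ANLN, the anillin gene, had 2 peaks in replicate 2 alone. CDC42EP4 and CDC42EP1, singled out after their values were seen, held 4 and 3 shared regions. In their shorter windows these gave 8.27 and 10.4 per 100 kb, above the 6.69 of SEPTIN9. All 4 regions of CDC42EP4 overlapped its span. At CDC42EP1, with a span of 8.93 kb, only 1 of the 3 did, and the others lay in the flanks. At CDC42EP4 the background had a median of 635 and 742 reads per 10 kb, close to SEPTIN9, and the median fold enrichment was 3.34. CDC42EP1 differed, with a median background of 281 and 311 reads per 10 kb and a median fold enrichment of 4.39. Over all shared regions the medians were 236 and 277 reads and 4.12.

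The long genes nearest to SEPTIN9 in shared regions per 100 kb, over the 2 libraries, were ARHGAP35 (6.70), CMIP (6.62), SUSD1 (6.47), ERGIC1 (7.22) and TTC7A (6.10). CMIP had 19 regions and ARHGAP35 had 11. The median fold enrichment of their regions ran from 3.17 to 3.81, below the 4.12 of all shared regions in 5 of the 5 genes. Their median background ran from 371 to 523 reads per 10 kb in replicate 1 and from 419 to 633 in replicate 2. These backgrounds lay between those of all shared regions and those of SEPTIN9. Likeness here is in density only, over 2 libraries.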

How the data were processed

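DEK ChIP-seq peaks of 2 libraries of 786-O cells were read from the authors' deposited lists, 1 per library, on GRCh38 (hg38). Per the submitters' processing notes the tools, listed without roles, were MACS2 2.2.7.1, Bowtie2 2.2.5, deepTools 3.5.1, cutadapt 1.18, ChIPseeker 1.32.1 and DiffBind 3.6.5. The deposited values are a score, a fold enrichment (linear ratio), −log10 p and −log10 q at the summit, and a summit offset. Whether peaks were called against a control library is not stated in these sources.

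Replicate 1 had 19015 and replicate 2 had 24457 peaks on chromosomes 1 to 22 and X, and the others were left out. The median peak had 19 overlapping fragments in both. Peaks overlapping by at least 1 bp were joined. Each region took the strongest peak per library and the midpoint of both summits. Fragments and background were solved from fold enrichment and p, taken as (fragments + 1) over (background + 1) and a Poisson tail, which a whole number met within a relative 5e-05 in all but 1 peak of each library. Backgrounds above each library's lowest value, at peaks of under 100 fragments, were whole reads per 10 kb (within 0.05) at fragment lengths of 178 and 163 bp, as calling without a control would give. Joining and solving were tested on simulated data. Genes, starts and sequences came from RefSeq tables of GRCh38.p14. No test was run. Intervals are 95% Wilson or exact Poisson. Genes named were the 9 septins, every SEPTIN9 region, the other septins, 20 partners (the 4 of highest fold enrichment), 3 neighbours a side and the 5 genes of at least 100 kb nearest in density. The members and lists were chosen with earlier results of these data known, and the motifs were chosen after the files were read. Python 3.11.15, scipy 1.17.1 and pandas 2.3.3 were used.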

Additional observations from a re-analysis of the deposited data

How the results depend on the processing

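The number of SEPTIN9 regions depended on how strong a peak had to be. It was 16 as reported, 10 (4.18 per 100 kb) with a −log10 q of at least 5 and 2 (0.836 per 100 kb) with a fold enrichment of at least 4. With 1 replicate left out, the peaks of the other gave 20 to 25 (8.36 to 10.5 per 100 kb). Of the 9 septin genes, those with a shared region numbered 6 as reported and 2 at either of those thresholds, where fewer peaks were left. They numbered 5 without flanks, which dropped SEPTIN4, and 4 with 50% reciprocal overlap (SEPTIN7 and SEPTIN10 dropped) or with summits within 100 bp (SEPTIN7 and SEPTIN11 dropped). The pooled share of SEPTIN9 peaks that were shared, 73.3%, was 57.8% when summits had to lie within 100 bp. Flanks of 0 or 50 kb and 50% reciprocal overlap kept the SEPTIN9 counts between 15 and 17. Summits within 100 bp lowered the count to 13 (5.44 per 100 kb). The strongest region kept its value of 5.62 under every setting that used both replicates, and was 4.93 to 6.31 with 1 left out. With 1 replicate no share can be given. No paired analysis was possible because both samples belong to 1 group.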

Other observations

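Long non-coding RNA genes within SEPTIN9 differed in length and in the peaks they held. LOC112268199, which spans chr17:77417184-77435374 inside SEPTIN9, held the shared summit at 77430393 and 2 further peaks of replicate 2 alone, at 77423907 and 77427461. Those 2 had the highest backgrounds of any SEPTIN9 peak, 1240 and 1211 reads per 10 kb, with 44 and 46 fragments and a fold enrichment of only 2.12 and 2.27. Replicate 1 had 1 peak in that gene, at a background of 704. LOC124904062, LOC112268198 and LOC105371903, also inside SEPTIN9, held no peak of either library. They span only 1.373, 2.249 and 4.355 kb, against 18.191 kb for LOC112268199, and so offered less room for a peak.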
